A study of Drosophila melanogaster with 12 samples.

Results

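The structural proteins of the fly cuticle were followed through 12 Affymetrix Drosophila genome arrays of Drosophila melanogaster. A probe set, the group of short probes that reports 1 transcript, was a member when the platform annotation gave it a single gene symbol and that symbol began as those of the Cpr, Lcp, Ccp84, Edg or Tweedle (Twdl) genes or was Pcp or Acp65Aa. This choice used names only and no measured value. It gave 107 of 18769 probe sets, for 105 genes: 67 probe sets of Cpr genes, 24 of Tweedle genes, 8 of Lcp genes, 3 of Ccp84 genes, 3 of Edg genes, 1 of Acp65Aa and 1 of Pcp. Cpr47Ef and Lcp65Aa had 2 probe sets each.

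The insect cuticle is a layer of chitin fibres set in a matrix of proteins that the epidermis secretes before each moult. Cpr proteins carry the Rebers-Riddiford consensus, a stretch that binds chitin, and many of the proteins named for a stage (larval cuticle proteins, Lcp; the pupal cuticle protein, Pcp; an adult cuticle protein, Acp65Aa) belong to the same superfamily under older names. Tweedle proteins form a separate family, known from mutants with a short, squat body. The Edg genes were named as ecdysone-dependent genes, and pulses of this steroid time the moults, so that sets of cuticle genes are switched on and off in a narrow order. Fly cuticle genes often lie side by side in clusters of related copies.

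The arrays fell into 4 groups of 3: knockdown of selenophosphate synthetase 2 (gene Sps2) in adult flies, wild type adults, the same knockdown in larvae, and wild type larvae. Sps2 makes selenophosphate, the selenium donor for selenoproteins. Each array is labelled as its own biological replicate, and flies were kept on cornmeal and yeast food. The sources used here do not say how the knockdown was made, which line was wild type, or the sex, age and body part of the animals. Values are the authors' log2 signals, and a probe set was tested when at least 3 of the 12 arrays reached that array's 40th percentile, which lay between 5.10 and 5.39 on the log2 scale. That left 84 members among 12827 tested probe sets. A change was called at a Benjamini-Hochberg adjusted p under 0.05 in a limma fit to all 12 arrays, and all adjusted p values below are from limma.

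Sps2 checked the labels. Its log2 signal was 7.10, 7.11 and 6.82 in adult knockdown, against 9.82, 9.78 and 9.84 in adult wild type, a change of -2.80 (SE 0.12, adjusted p = 2.66e-08). In larvae it was 7.56, 7.11 and 7.21 in knockdown, against 9.62, 9.49 and 9.70 in wild type, a change of -2.31 (SE 0.12, adjusted p = 1.37e-07). A pair of arrays stood apart from the others of their group. Adult knockdown replicate 2 had 10 of 24 Tweedle probe sets at or above the percentile, where replicates 1 and 3 had 4 and 3. Larval wild type replicate 1 had a summed linear signal of 1208 over the 3 measured genes of a larval fat body list, where replicates 2 and 3 had 25705 and 27367. For each of these arrays, the counts of members called between knockdown and wild type at its stage are given with and without it. Acp65Aa, Cpr49Ac and Pcp are also given without larval wild type replicate 1. Other counts and values include both arrays unless stated.

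Most of the cuticle protein genes were larval genes on these arrays. On the adult side 21 of 107 members were at or above the percentile on all 3 knockdown arrays and 20 on all 3 wild type arrays. In larvae these numbers were 69 in knockdown and 72 in wild type. The summed linear signal over the 107 probe sets ran between 9874 and 10728 in adult knockdown, 9976 and 11781 in adult wild type, 264260 and 284792 in larval knockdown, and 239250 and 264571 in larval wild type. RNA from fewer cells of a type and less RNA per cell cannot be told apart in such samples. Among the 23 members that were not tested were 8 Tweedle genes (TwdlC, TwdlE, TwdlF, TwdlQ, TwdlR, TwdlS, TwdlV and TwdlZ), Ccp84Ac, Edg84A and 13 Cpr probe sets. The summed signal of those 23 was between 225 and 471 on every array.

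**Figure D1:**
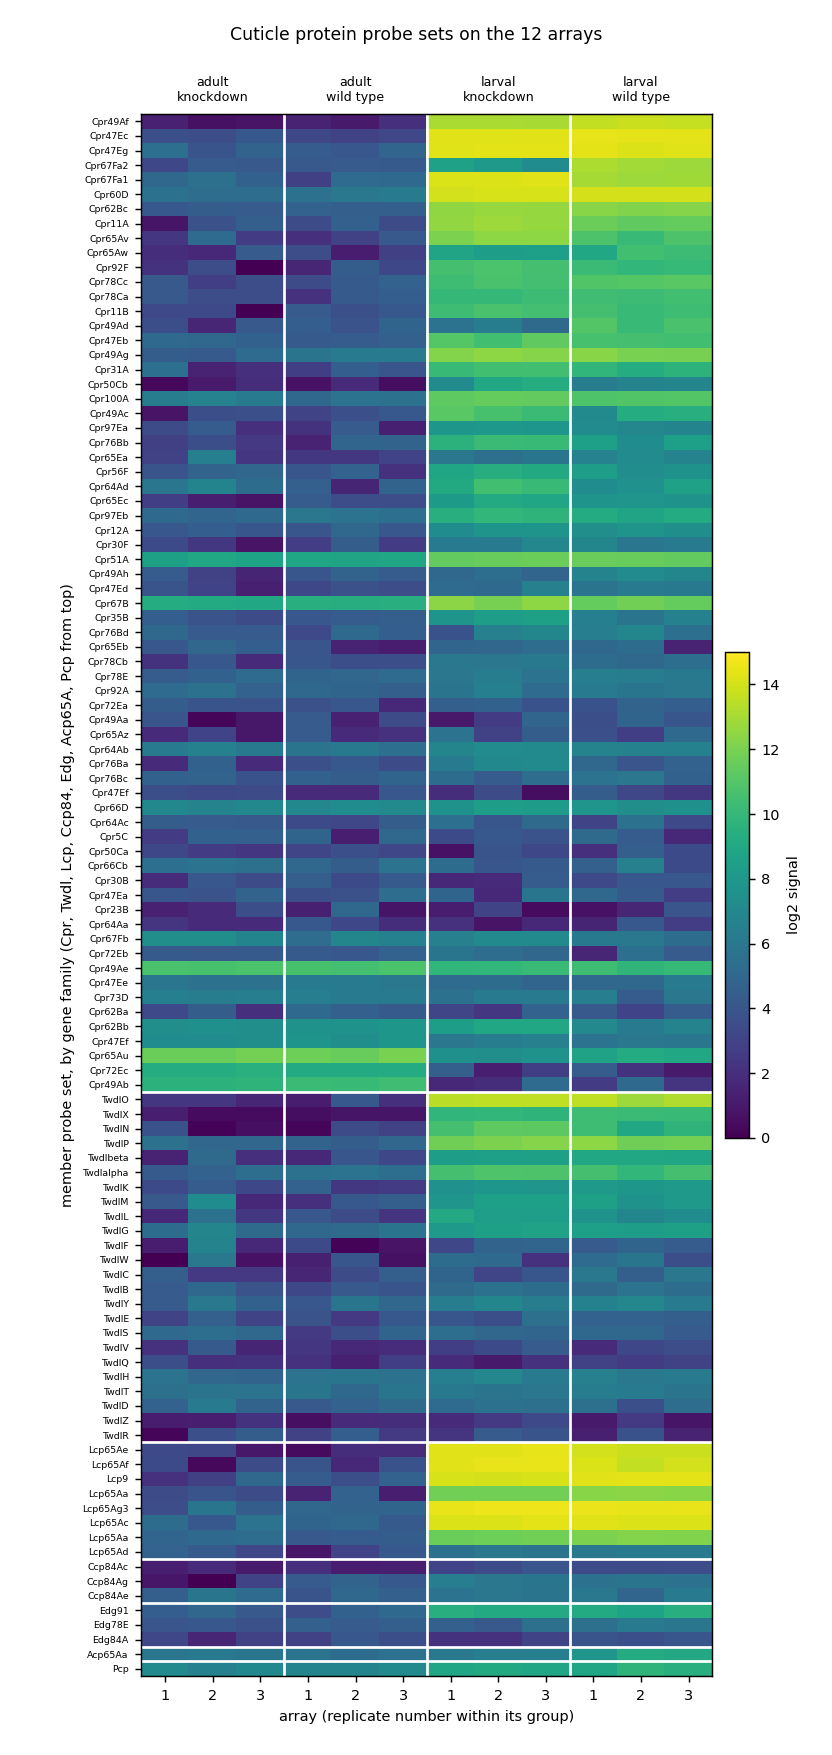
Log2 signal of the 107 cuticle protein probe sets (rows, by family) on the 12 arrays (columns, in the order adult knockdown, adult wild type, larval knockdown, larval wild type). The colour scale is the log2 signal. Most rows are dimmer on the 6 adult arrays than on the 6 larval arrays, and every Lcp row follows that pattern.

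Stage of expression in wild type was used to group the members, so those values are a description. In adult wild type against larval wild type, 6 of 84 tested members were higher and 65 lower, where 53.3% of all tested probe sets were higher and 28.4% lower. The median change over the 84 was -4.10 on the log2 scale, beside 0.51 over all tested probe sets. All 8 Lcp probe sets were lower in adults, with a median of -9.77. Of 16 tested Tweedle genes, 12 were lower and 4 not called. The Cpr genes held all 6 members that were higher in adults, beside 40 lower and 8 not called.

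Some larval genes were below the percentile throughout the adult arrays. Lcp65Ae, a larval cuticle protein gene, had 0.44, 1.98 and 1.93 in adult wild type, against 13.97, 13.81 and 13.77 in larval wild type. The adult level was at least 367-fold lower than the larval level, a bound taken against the 40th percentile of the adult arrays. Cpr49Af had 1.51, 1.09 and 2.03 in adult wild type, against 13.64, 13.80 and 13.67 in larval wild type, at least 332-fold lower in adults. TwdlO, a Tweedle gene, had 1.17, 4.13 and 2.03 in adult wild type, against 13.57, 12.79 and 13.20 in larval wild type, at least 232-fold lower. The same bound was 540-fold for Cpr47Ec, 384-fold for Lcp65Af and 523-fold for Lcp9.

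The 6 members that were higher in adults made a small and mixed set. Cpr49Ab had 10.25, 10.18 and 10.42 in adult wild type, against 2.58, 5.11 and 2.34 in larval wild type, at least 34.9-fold higher. Cpr72Ec had 9.18, 9.19 and 9.21 in adult wild type, against 4.35, 2.22 and 1.10 in larval wild type, at least 16.4-fold higher. Both were below the percentile in wild type larvae. Cpr65Au was bright at both stages, at 11.70, 11.50 and 11.97 in adult wild type, against 8.63, 9.25 and 8.91 in larval wild type. The difference was 2.79 (SE 0.15, adjusted p = 2.54e-09), or 6.91-fold. Smaller differences were seen for 1 of the 2 Cpr47Ef probe sets at 1.86, for Cpr62Bb at 1.09 and for Cpr49Ae at 0.57. The last 2 depended on scaling: Cpr62Bb was 0.38 (adjusted p = 0.126) and Cpr49Ae was -0.14 (adjusted p = 0.302) when each array was centred on its median.

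The stage pattern was then read on the 6 knockdown arrays, which the grouping had not used. Of the 84 tested members, 41 were under the percentile on all 6 adult arrays and passed the filter through larval arrays. For these a lower value in adult knockdown was close to fixed in advance. In adult knockdown against larval knockdown, 5 of 84 members were higher and 64 lower, where 50.3% of all tested probe sets were higher and 30.9% lower. The median change was -4.15 over the members and 0.43 over all tested probe sets. Of the 65 members that were larval in wild type, 59 were lower in adult knockdown and 6 were not called (Acp65Aa, Ccp84Ae, Cpr65Ea, Cpr76Bd, Cpr92A and Edg78E). Of the 6 that were adult in wild type, 5 were higher in adult knockdown. Cpr62Bb turned: it had 7.42, 7.54 and 7.42 in adult knockdown, against 8.37, 8.96 and 8.95 in larval knockdown, a change of -1.30 (SE 0.21, adjusted p = 7.83e-05). The stage difference of Cpr65Au was wider in knockdown, at 4.19 (SE 0.15, adjusted p = 5.53e-11), and that of Acp65Aa, the adult cuticle protein gene, was -0.38 (adjusted p = 0.271) in knockdown beside -3.12 (adjusted p = 1.02e-06) in wild type.

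**Figure D2:**
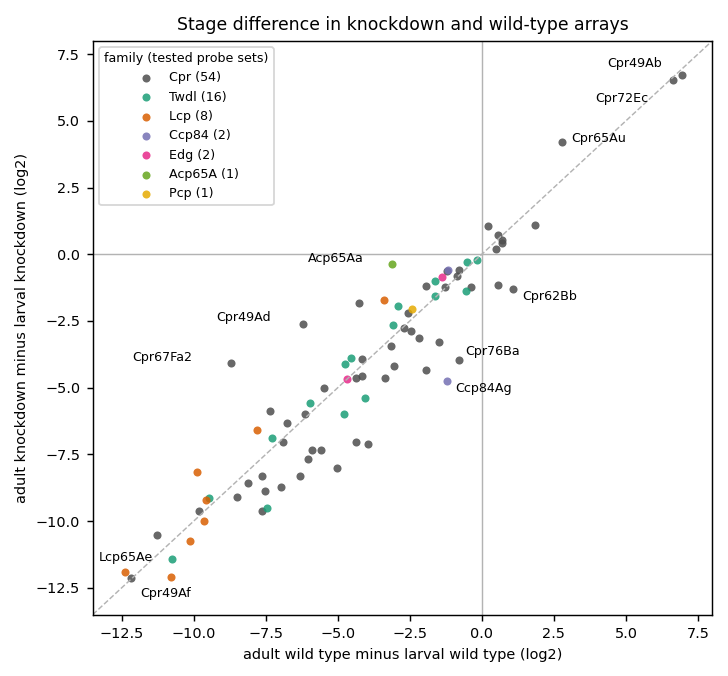
Adult minus larval difference in log2 signal of the 84 tested members, in knockdown arrays on the vertical axis and in wild type arrays on the horizontal axis, with families in separate colours. Most points lie low on both axes. Cpr62Bb is above 0 in wild type and below 0 in knockdown, and Acp65Aa is near 0 in knockdown.

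The larval comparison asked how knockdown larvae differed from wild type larvae. The largest changes were losses: Cpr67Fa2 was 30.9-fold lower and Cpr49Ad 29.0-fold lower in knockdown, while Cpr62Bb was 4.23-fold and Cpr35B 3.89-fold higher. In all, 9 of 84 members were higher and 6 lower, where 15% of all tested probe sets were higher and 10.7% lower. The share of members called was thus under the background in both directions (10.7% and 7.14% of members). The median change was 0.12 over the members and 0.04 over all tested probe sets. The count higher depended on single arrays. It was 4 with replicate 2 of larval knockdown left out, 3 with replicate 3 of that group left out, and 4 with replicate 2 of larval wild type left out. Leaving out replicate 1 of larval wild type gave 8 higher and 6 lower.

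That fit uses 1 estimate of the spread per probe set over all 4 groups, and for the cuticle genes the groups differed in spread. The pooled SD within groups had a median of 0.63 in adults and 0.27 in larvae over the 84 members, beside 0.12 in adults and 0.20 in larvae over all 12827 probe sets. With the 6 larval arrays fitted alone, 24 members were higher and 14 lower in knockdown, where 9.62% of all tested probe sets were higher and 7.8% lower. Here 28.6% and 16.7% of members were called, above the shares of all tested probe sets in both directions. Those shares were not limited to probe sets at or above the percentile in larvae. Of the 84 members, 65 were higher in larvae in wild type. Whether the excess remains beside other probe sets with larval signal was not tested. Of the 15 members called with 12 arrays, 14 were among the 38 called here, the exception being Cpr66D (adjusted p = 0.0824). The counts were 25 higher and 15 lower without larval wild type replicate 1, and 17 to 25 higher and 12 to 15 lower with each larval array left out in turn. Before any test, the 3 knockdown values lay above the 3 wild type values for 28 members and below them for 17, where 19.8% of all tested probe sets lay above and 15.5% below. The 24 members that only the 6-array fit called had adjusted p values between 0.0535 and 0.753 with 12 arrays. Adjusted p values below are those of 12 arrays unless the 6-array or 6-adult-array fit is named.

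Genes lower in knockdown larvae came first by size. Cpr67Fa2, a chitin-binding cuticle gene on chromosome arm 3L, had 8.59, 8.14 and 7.30 in larval knockdown, against 13.16, 12.92 and 12.81 in larval wild type. The groups were far apart, with a change of -4.95 (SE 0.32, adjusted p = 5.99e-07, and 5.55e-06 in the 6-array fit). Cpr49Ad, on 2R, had 5.74, 6.33 and 5.18 in larval knockdown, against 11.00, 10.13 and 10.69 in larval wild type. It was low in every knockdown array and well above the percentile in every wild type array, a change of -4.86 (SE 0.56, adjusted p = 6.07e-05, and 1.21e-05 in the 6-array fit). Acp65Aa, the gene of an adult cuticle protein, had 5.98, 6.42 and 6.49 in larval knockdown, against 7.84, 9.22 and 9.07 in larval wild type. The groups did not overlap, and wild type replicate 1 was the lowest of its group. The change was -2.41 (SE 0.31, adjusted p = 0.000148), or 5.33-fold lower, and -2.85 without that array. All 3 were called without any 1 larval array.

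Cpr65Au, which was brighter in adults than in larvae, had 7.51, 7.43 and 7.62 in larval knockdown, against 8.63, 9.25 and 8.91 in larval wild type. Its values were tight in knockdown and all below wild type, a change of -1.41 (SE 0.15, adjusted p = 3.05e-05), or 2.66-fold lower. Cpr49Ah had 5.09, 5.44 and 4.87 in larval knockdown, against 6.72, 7.21 and 6.91 in larval wild type. Knockdown was near or under the percentile, so the fall was at least 3.04-fold (change -1.82, SE 0.58, adjusted p = 0.0363, and 0.00141 in the 6-array fit). With 12 arrays this call was lost without any 1 of the 6 larval arrays, with adjusted p up to 0.105. A small fall was called for Lcp65Aa, a larval cuticle protein gene, at 11.65, 11.70 and 11.81 in larval knockdown, against 12.03, 12.22 and 12.15 in larval wild type. The change was -0.42 (SE 0.11, adjusted p = 0.0187, up to 0.0757 with 1 array left out), and the other Lcp65Aa probe set was at -0.55 (adjusted p = 0.00016 in the 6-array fit).

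**Figure D3:**
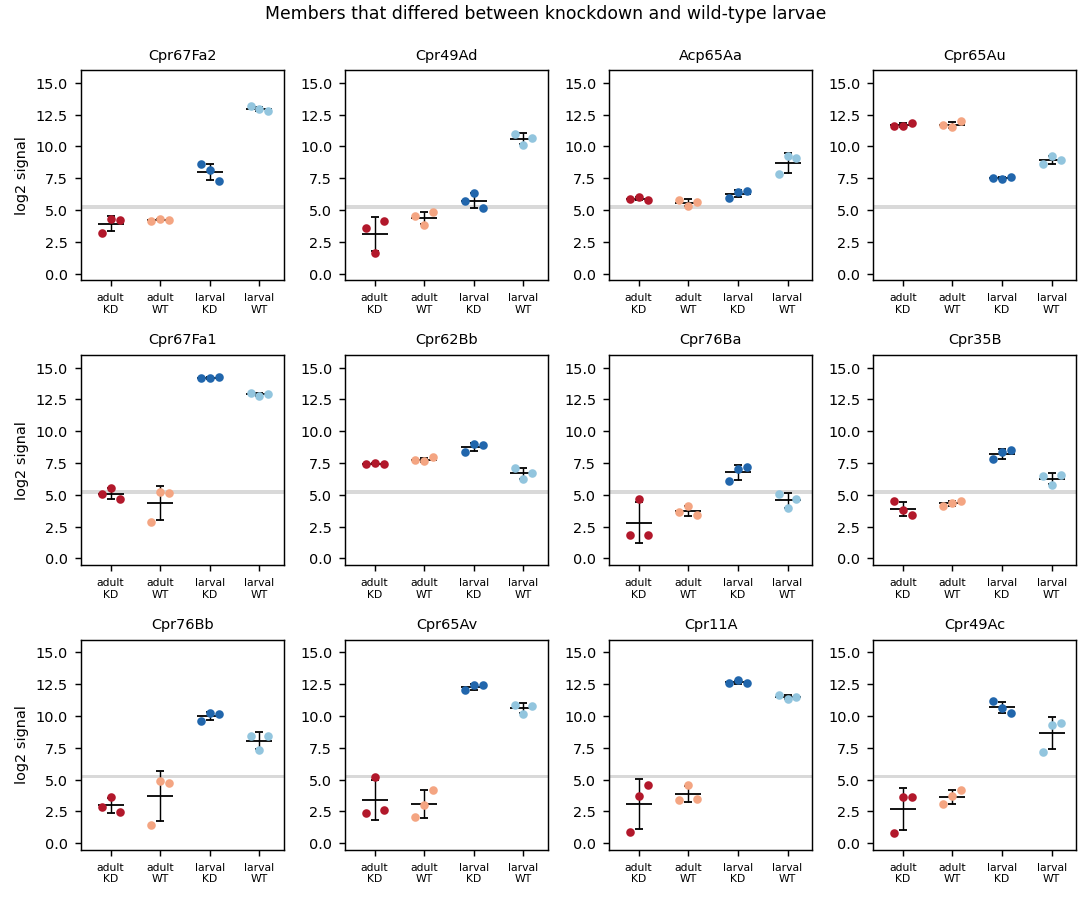
Log2 signal per array of 12 named members in adult knockdown, adult wild type, larval knockdown and larval wild type (KD, knockdown; WT, wild type). Points are arrays, the bar is the mean of 3 and the whisker its SD, and the grey band is the range of the 40th percentiles, 5.10 to 5.39. Cpr67Fa2, Cpr49Ad, Acp65Aa and Cpr65Au are lower in larval knockdown on all 3 arrays, and the other 8 are higher on all 3.

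Genes higher in knockdown larvae were more numerous, and none changed as much as Cpr67Fa2, Cpr49Ad or Acp65Aa. Cpr62Bb had 8.37, 8.96 and 8.95 in larval knockdown, against 7.08, 6.25 and 6.72 in larval wild type. The groups were well apart, a change of 2.08 (SE 0.21, adjusted p = 1.97e-05). Cpr35B had 7.78, 8.38 and 8.53 in larval knockdown, against 6.48, 5.77 and 6.57 in larval wild type. It too had no overlap, a change of 1.96 (SE 0.34, adjusted p = 0.00122). Cpr76Ba had 6.12, 7.01 and 7.18 in larval knockdown, against 5.04, 3.94 and 4.69 in larval wild type. Every wild type array was under the percentile, and the rise was at least 3.06-fold (change 2.21, SE 0.70, adjusted p = 0.0356, and 0.00476 in the 6-array fit). Cpr50Cb had 7.21, 8.93 and 9.29 in larval knockdown, against 6.34, 6.69 and 6.83 in larval wild type. Knockdown replicate 1 lay nearest to wild type, and the change was 1.86 (SE 0.63, adjusted p = 0.0485).

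Cpr67Fb, the neighbour of Cpr67Fa2, had 6.56, 7.17 and 7.20 in larval knockdown, against 6.05, 6.01 and 5.32 in larval wild type, a change of 1.18 (SE 0.37, adjusted p = 0.035). Cpr67B, a bright gene at both genotypes, had 12.41, 11.93 and 12.47 in larval knockdown, against 11.45, 11.80 and 11.45 in larval wild type. Its rise was 1.63-fold (change 0.70, SE 0.14, adjusted p = 0.00337). Smaller rises were called for Cpr97Eb at 0.63 (adjusted p = 0.0273), Cpr66D at 0.56 (adjusted p = 0.0416) and Cpr62Bc at 0.35 (adjusted p = 0.0195). Of the 9 genes called higher with 12 arrays, Cpr62Bb, Cpr35B and Cpr67B were called without any 1 larval array. Cpr76Ba, Cpr50Cb, Cpr67Fb, Cpr97Eb, Cpr66D and Cpr62Bc each lost the call without at least 3 of the 6 arrays, with adjusted p up to 0.188 for Cpr50Cb. With each array centred on its median, Cpr76Ba (adjusted p = 0.0507), Cpr50Cb (0.07), Cpr97Eb (0.0773), Cpr66D (0.0979) and Cpr62Bc (0.151) missed the threshold.

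The 6-array fit added genes whose larval groups were apart. Cpr67Fa1, which lies beside Cpr67Fa2, had 14.16, 14.19 and 14.27 in larval knockdown, against 12.98, 12.80 and 12.89 in larval wild type. The arrays of each group were within 0.18 of each other, and the rise of 1.31 had an adjusted p of 3.37e-06 in the 6-array fit and 0.0615 with 12 arrays. Cpr11A had 12.56, 12.79 and 12.62 in larval knockdown, against 11.63, 11.33 and 11.45 in larval wild type, a rise of 1.19 (6-array adjusted p = 3.72e-05). Cpr65Av had 12.02, 12.44 and 12.44 in larval knockdown, against 10.82, 10.17 and 10.81 in larval wild type, a rise of 1.70 (6-array adjusted p = 0.000261). Cpr76Bb, a neighbour of Cpr76Ba, had 9.63, 10.25 and 10.12 in larval knockdown, against 8.45, 7.29 and 8.44 in larval wild type, a rise of 1.93 (6-array adjusted p = 0.00199). None of these 4 pairs of groups overlapped, and Cpr76Bb had the widest wild type range of the 4, at 1.16.

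Other genes followed. Cpr49Ac had 11.16, 10.64 and 10.25 in larval knockdown, against 7.20, 9.27 and 9.46 in larval wild type. Wild type replicate 1 was far below the other 2, and the rise was 2.04 (6-array adjusted p = 0.0239), or 1.32 (6-array adjusted p = 0.00365) without that array. The call was lost without any 1 of the 3 larval knockdown arrays (6-array adjusted p up to 0.081). Cpr64Ad had 9.14, 10.48 and 10.14 in larval knockdown, against 7.28, 7.56 and 8.58 in larval wild type, a rise of 2.11 (6-array adjusted p = 0.005). Cpr56F rose by 1.30 (6-array adjusted p = 0.00525), and Cpr97Ea and Cpr65Ec both by 0.96 (6-array adjusted p = 0.00324 for Cpr97Ea and 0.0139 for Cpr65Ec). Cpr31A at 0.72, Cpr92F at 0.57 and Cpr100A at 0.44 completed the Cpr genes that rose. On the lower side the fit added Cpr65Aw at -1.34 (6-array adjusted p = 0.0249), Cpr65Ea at -1.11 (6-array adjusted p = 0.0126) and Cpr78Cc at -0.52 (6-array adjusted p = 0.00536). Cpr65Aw lost its call under 4 of 8 alternatives, each leaving out 1 larval array (6-array adjusted p up to 0.0898). Cpr49Af, a bright larval gene, had 13.12, 13.10 and 13.06 in larval knockdown, against 13.64, 13.80 and 13.67 in larval wild type. It fell by 0.61 with no overlap (6-array adjusted p = 0.000176).

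By family, the 6-array fit called 20 Cpr probe sets higher and 8 lower, 2 Lcp higher and 3 lower, 2 Tweedle higher and 2 lower, and Acp65Aa lower. Among the larval cuticle proteins, Lcp65Ae had 14.35, 14.34 and 14.45 in larval knockdown, against 13.97, 13.81 and 13.77 in larval wild type, a rise of 0.53 (6-array adjusted p = 0.000718), and Lcp65Af rose by 0.53 (6-array adjusted p = 0.00999). Lcp9 fell by 0.28 (6-array adjusted p = 0.00598). The summed linear signal of the 8 Lcp probe sets was between 108743 and 116679 in larval knockdown and between 99733 and 108743 in larval wild type, so that the ranges met at their ends. Among Tweedle genes, TwdlL had 9.07, 8.37 and 8.37 in larval knockdown, against 7.73, 6.91 and 7.32 in larval wild type, a rise of 1.28 (6-array adjusted p = 0.00667). TwdlN had 10.56, 11.30 and 11.20 in larval knockdown, against 10.32, 8.95 and 9.74 in larval wild type, a rise of 1.35 (6-array adjusted p = 0.0161, and up to 0.0736 without 1 of the knockdown replicates 2 and 3). Among other Tweedle genes, TwdlX, at -0.38 (6-array adjusted p = 0.0125), and Twdlbeta, at -0.48 (6-array adjusted p = 0.00899), fell.

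Members of the Pcp, Edg and Ccp84 families were not called by either fit in larvae. Pcp, the pupal cuticle gene that lies within an intron of Gart, had 8.90, 9.13 and 8.87 in larval knockdown, against 8.79, 9.76 and 9.47 in larval wild type. The groups overlapped through wild type replicate 1, and the change was -0.37 (adjusted p = 0.26). Without that array it was -0.65 (adjusted p = 0.0282). Edg78E, an ecdysone-dependent gene of imaginal discs, had 4.58, 4.20 and 5.52 in larval knockdown, against 5.51, 6.23 and 5.89 in larval wild type, a change of -1.11 (adjusted p = 0.0609, and 0.0236 after quantile normalization). Edg91 was at 0.13 (adjusted p = 0.819) and Ccp84Ag at 0.43 (adjusted p = 0.678). Of all members that neither fit called, Cpr72Eb had the largest change, at 1.58 (adjusted p = 0.16).

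Members that lie side by side in the genome did not always move alike. Neighbours were taken from the order of genes in the RefSeq table of the Release 6 assembly, with at most 2 other protein-coding genes between them, and calls by either fit are given. In the Cpr67F group on 3L, Cpr67Fa2 fell by 4.95 while Cpr67Fb rose by 1.18 and Cpr67Fa1, in the 6-array fit, by 1.31. In the Cpr49A group on 2R, Cpr49Ad fell by 4.86 and Cpr49Af by 0.61, Cpr49Ac rose by 2.04, and Cpr49Ab, Cpr49Ae and Cpr49Ag were at -0.38, -0.07 and 0.22 and not called. The largest group on 3L, from Lcp65Ag3 to Cpr65Az, has 12 probe sets for 11 genes: Acp65Aa, Cpr65Au, Cpr65Aw and both Lcp65Aa probe sets fell, and Cpr65Av, Lcp65Ae and Lcp65Af rose. In the Tweedle group of 12 genes on 3R, TwdlL and TwdlN rose and the other 7 tested genes were not called. None of the 6 tested genes of the Cpr47E group on 2R was called by either fit.

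**Figure D4:**
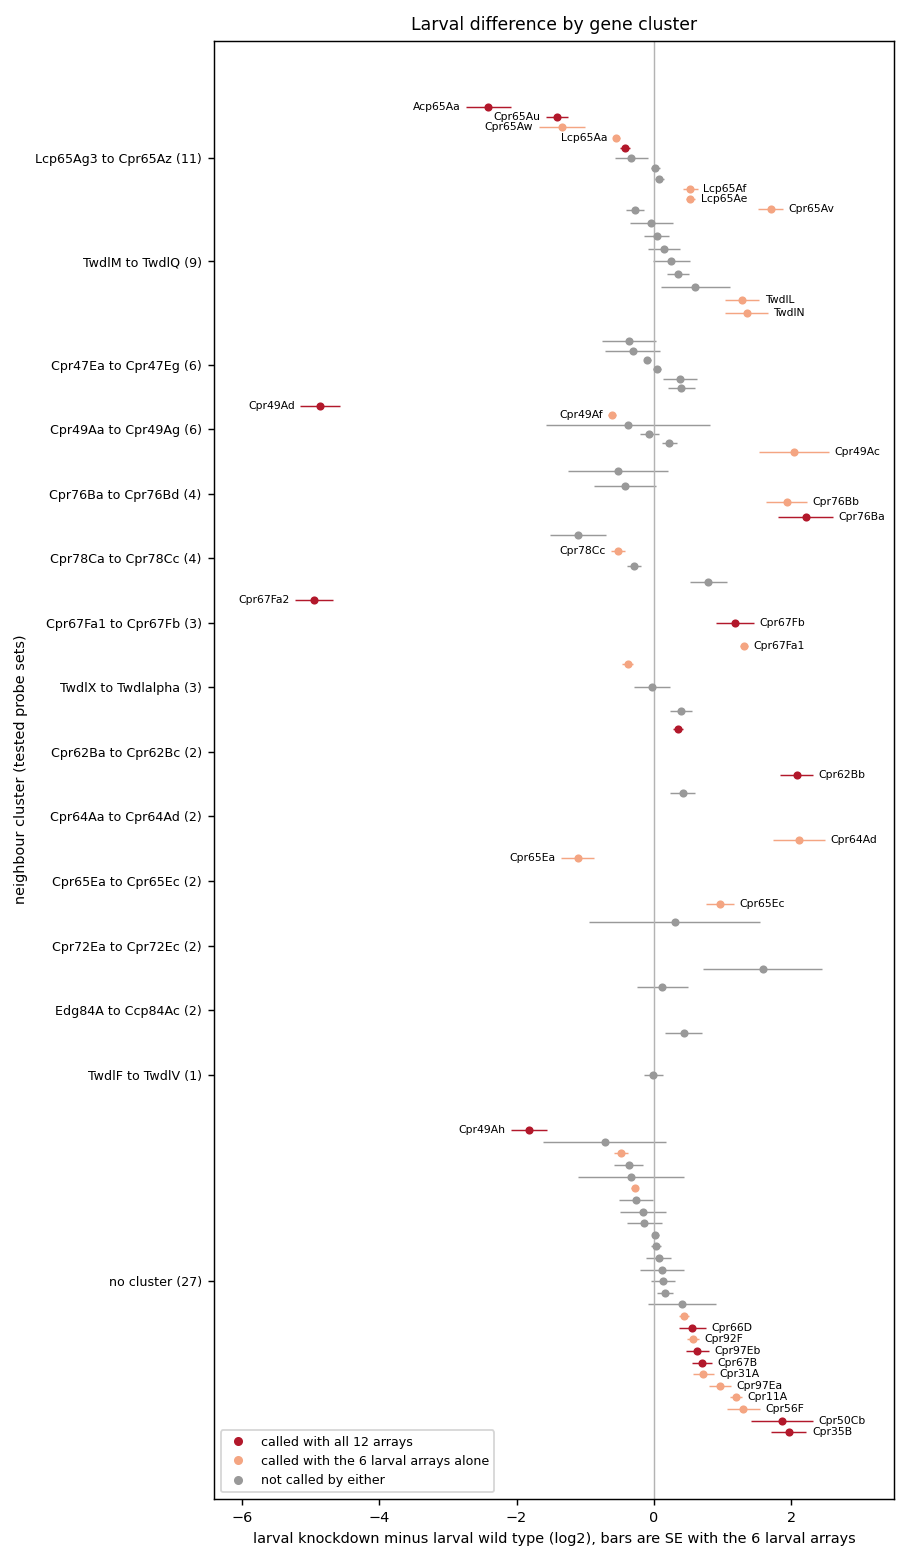
Log2 change in larvae, knockdown minus wild type, of the 84 tested members, placed by group of neighbouring genes. Bars are standard errors from the fit to the 6 larval arrays, and colour shows calls with 12 arrays, only with 6, or with neither. The Cpr67F, Cpr49A and Lcp65Ag3 to Cpr65Az groups hold members well above and well below 0.

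Probe sets with 2 symbols were no members and bear on near-identical copies. The probe set shared by Cpr67Fa2 and Cpr67Fa1 had 14.57, 14.60 and 14.75 in larval knockdown, against 13.93, 13.62 and 13.79 in larval wild type, a rise of 0.86 (adjusted p = 0.00714). It moved in the direction of the Cpr67Fa1 probe set and against that of the Cpr67Fa2 probe set. How each probe set divides its signal between these copies was not tested. The probe set shared by Ccp84Aa and Ccp84Ab had 8.60, 9.09 and 9.09 in larval knockdown, against 7.51, 7.25 and 7.59 in larval wild type. Its change of 1.48 was called in the 6-array fit (adjusted p = 0.000321) and not with 12 arrays (adjusted p = 0.2).

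Other genes moved with the larval groups. Both tested genes of the fat body list fell: Lsp2, which encodes a storage protein of late larvae, and Fbp2, which encodes another fat body protein. Lsp2 had 7.81, 6.99 and 6.28 in larval knockdown, against 9.78, 14.08 and 14.02 in larval wild type, and Fbp2 had 5.44, 4.90 and 4.04 in larval knockdown, against 8.32, 13.03 and 13.39 in larval wild type. The summed signal of the 3 measured genes was 96.9 to 273 in larval knockdown and 1208 to 27367 in larval wild type. A list of 13 measured salivary gland genes that are timed within the last larval stage summed to between 27462 and 34899 in larval knockdown and between 46872 and 48901 in larval wild type, with 0 of 4 tested genes called. Of 5 tested epidermis markers 1 fell (ovo, -0.49), with sums of 2619 to 3259 in larval knockdown and 2692 to 2923 in larval wild type. The 1 measured trachea marker, not called, had 4.21, 4.58 and 5.18 in larval knockdown, against 5.46, 5.65 and 5.64 in larval wild type. Of 6 haemocyte markers 1 rose and 3 fell, where 15% of all tested probe sets rose and 10.7% fell. Their sums were 4874 to 5656 in larval knockdown and 6129 to 7783 in larval wild type. Of 5 flight muscle markers 1 rose and 0 fell, and of 4 gut lining markers 0 were called. On each array, 1 or 2 of the 3 fat body genes reached the percentile in larval knockdown and 2 or 3 in larval wild type. The part of these markers in the changes of the cuticle genes was not tested.

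Genes that time and build the cuticle were read from lists in the same larval fit, beside the backgrounds of 15% higher and 10.7% lower. Of 23 tested ecdysone and moult genes, 0 rose and 7 fell, with a median of -0.30. The early-response transcription factor gene br had 9.58, 9.21 and 9.03 in larval knockdown, against 10.10, 10.54 and 10.30 in larval wild type, a fall of 1.04 on the log2 scale (adjusted p = 0.000456). EcR, the ecdysone receptor gene, had 7.32, 7.25 and 7.14 in larval knockdown, against 8.35, 8.09 and 8.07 in larval wild type, a change of -0.93 (adjusted p = 0.000917). Neither pair of groups overlapped. Of 18 tested chitin turnover genes 7 rose and 1 fell, among them Cht5, a chitinase, at 1.79 (adjusted p = 0.000961), and Idgf1, a chitinase-like growth factor, at 1.80 (adjusted p = 2.7e-05). Of 20 genes of chitin synthesis and organisation 0 rose and 4 fell, with mmy, which makes the chitin precursor, at -0.37 (adjusted p = 0.000662). Of 21 sclerotisation and pigmentation genes 3 rose and 3 fell, of 16 other chitin-binding genes 0 rose and 1 fell, and of 9 lipid barrier genes 0 rose and 3 fell, with Cyp4g1, the hydrocarbon-forming enzyme, at -0.55 (adjusted p = 3.45e-06).

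The adult comparison asked the same of knockdown adults. Few cuticle genes were above the percentile, and most called changes were small or at low signal: Cpr100A was 1.88-fold higher, Cpr49Ag at least 1.87-fold lower and Cpr97Eb at least 1.49-fold lower in knockdown. Of 84 members 4 were higher and 7 lower, where 13.6% of all tested probe sets were higher and 15.4% lower. These were 4.76% and 8.33% of members. However, 41 of the 84 were under the percentile on all 6 adult arrays and passed the filter through larval arrays. Among the 43 members that reached it on at least 1 adult array, 3 were higher and 4 lower (6.98% and 9.3%), where 14.5% of all probe sets so limited were higher and 16.3% lower, a limit chosen after the data were seen. The median change was -0.05 over the members and -0.04 over all tested probe sets. With the 6 adult arrays alone 3 members were higher and 8 lower, where 22.4% of all tested probe sets were higher and 25.8% lower. The knockdown values lay wholly above wild type for 8 members and wholly below for 14, where 26.8% of all tested probe sets lay above and 31.4% below. Without adult knockdown replicate 2 the counts were 4 higher and 8 lower. Centring each array on its median shifted the median of all tested probe sets by 0.28 in this comparison. It gave 9 of 84 members higher and 3 lower. Over all tested probe sets it gave 4666 higher and 779 lower calls, beside 1742 and 1975 without it. The move of the members towards higher calls was thus shared by all tested probe sets.

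Among genes that rose in adults, Cpr100A had 6.27, 6.66 and 6.20 in adult knockdown, against 5.03, 5.70 and 5.67 in adult wild type. The groups did not overlap, a change of 0.91 (SE 0.17, adjusted p = 0.00176). Cpr64Ad had 5.86, 6.79 and 5.32 in adult knockdown, against 4.59, 1.58 and 4.77 in adult wild type, at least 1.58-fold higher (change 2.34, SE 0.73, adjusted p = 0.0315). Wild type replicate 2 was far below the other 2, and without it the change was 1.31 (adjusted p = 0.0815). The call was also lost without knockdown replicate 1 (2.41, adjusted p = 0.0668) and knockdown replicate 2 (1.94, adjusted p = 0.122). Lcp65Aa, a larval gene, had 4.92, 5.13 and 5.35 in adult knockdown, against 4.21, 4.34 and 4.40 in adult wild type. Wild type was under the percentile on every array and knockdown close to it, so the change of 0.82 (adjusted p = 0.000249) carries no fold. Cpr47Ec, at 0.66 (adjusted p = 0.0033), was under the percentile on all 6 adult arrays and was not called with those arrays alone (adjusted p = 0.31).

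Among genes that fell in adults, Cpr49Ag had 4.42, 4.25 and 5.24 in adult knockdown, against 5.79, 6.21 and 6.22 in adult wild type. It reached the percentile on all 3 wild type arrays and on 1 knockdown array, a change of -1.43 (SE 0.22, adjusted p = 0.000509). Cpr97Eb had 5.12, 4.92 and 5.14 in adult knockdown, against 5.95, 5.70 and 5.48 in adult wild type, a change of -0.65 (adjusted p = 0.0214). Twdlalpha, a Tweedle gene, had 4.26, 4.70 and 5.40 in adult knockdown, against 5.62, 5.69 and 5.41 in adult wild type, a change of -0.79 (adjusted p = 0.0325). Cpr60D was at -0.44 (adjusted p = 0.0141) and Cpr62Bc at -0.32 (adjusted p = 0.0285). Cpr97Eb, Twdlalpha, Cpr60D and Cpr62Bc lost their calls under quantile normalization and under median centring, at adjusted p between 0.119 and 0.842, and each lost it without at least 3 of the 6 adult arrays. With the 6 adult arrays alone, Twdlalpha (adjusted p = 0.0682), Cpr60D (0.125) and Cpr62Bc (0.432) were not called.

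Low signal marked other adult calls. Ccp84Ag, of the Ccp84 cluster, had 0.88, 0.00 and 3.06 in adult knockdown, against 4.29, 4.80 and 4.16 in adult wild type, a change of -3.10 (SE 0.65, adjusted p = 0.004). Cpr65Ec had 2.80, 1.28 and 0.79 in adult knockdown, against 4.37, 3.57 and 3.56 in adult wild type, a change of -2.21 (adjusted p = 0.00418). Ccp84Ag, Cpr65Ec, Cpr47Ec and Cpr62Bc were under the percentile on all 6 adult arrays, so no fold is given for them. Cpr49Ab, the gene with the largest adult excess over larvae in wild type, had 9.62, 9.65 and 9.76 in adult knockdown, against 10.25, 10.18 and 10.42 in adult wild type. It fell by 0.60 in the fit to the 6 adult arrays (adjusted p = 0.000209), with no overlap, and had an adjusted p of 0.63 with 12 arrays. Cpr47Ef at -0.37 (6-adult-array adjusted p = 0.0376), Cpr62Bb at -0.31 (6-adult-array adjusted p = 0.0424) and Cpr67B at -0.26 (6-adult-array adjusted p = 0.0435) were also called in that fit only.

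Larger changes that did not pass were those of Cpr11B at -1.84, Cpr49Ah at -1.45, Lcp65Ad at 1.37, Cpr65Ea at 1.31, Cpr49Ad at -1.26 and Cpr92F at -1.19. Cpr11B had 3.32, 3.29 and 0.00 in adult knockdown, against 4.29, 3.69 and 4.15 in adult wild type. Both Cpr11B and Cpr49Ad were under the percentile on all 6 adult arrays, so no size can be read for their changes. Acp65Aa was at 0.32, Edg78E at -0.56 and Pcp at 0.00. The array that stood apart showed in Tweedle genes: TwdlF had 1.13, 6.69 and 1.73 in adult knockdown, against 3.34, 0.15 and 0.77 in adult wild type, and TwdlM had 4.19, 7.29 and 1.67 in adult knockdown, against 2.02, 4.12 and 4.54 in adult wild type. In both genes knockdown replicate 2 was the highest adult array. The summed Tweedle signal was 417, 971 and 370 in adult knockdown, against 372, 457 and 466 in adult wild type.

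**Figure D5:**
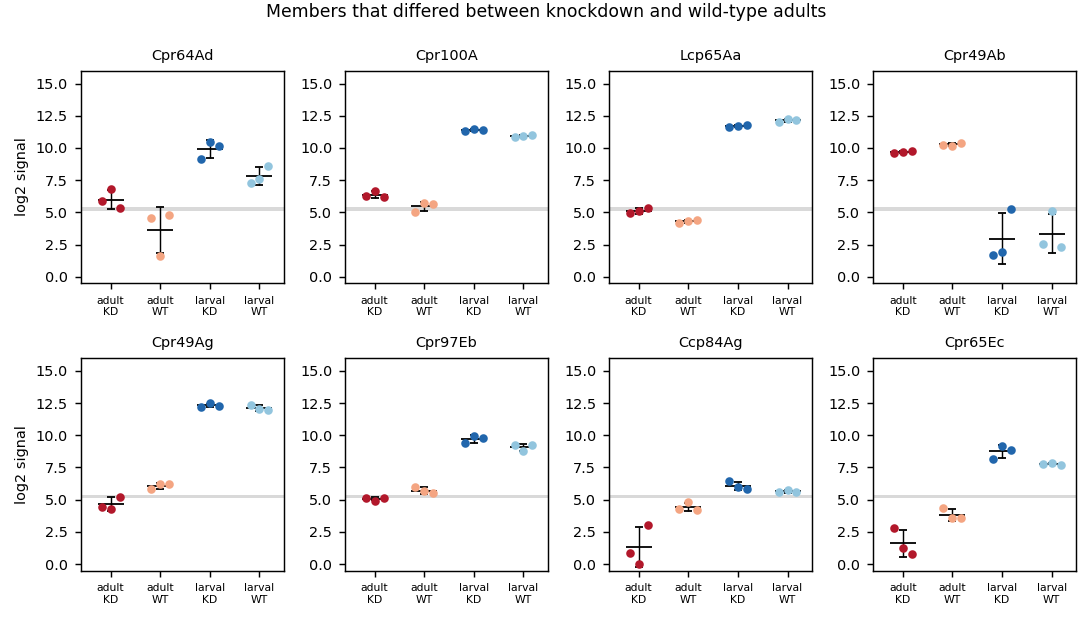
Log2 signal per array of 8 named members in adult knockdown, adult wild type, larval knockdown and larval wild type (KD, knockdown; WT, wild type). Points are arrays, the bar is the mean of 3 and the whisker its SD, and the grey band is the range of the 40th percentiles, 5.10 to 5.39. Cpr49Ab is far above the band in both adult groups, while Ccp84Ag and Cpr65Ec lie under it on every adult array.

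Other lists also differed between the adult groups. Of 11 adult male markers, 6 fell in adult knockdown, where 15.4% of all tested probe sets fell. Their sums were 18719 to 26910 in knockdown and 27875 to 32559 in wild type. Sums of adult female, head and eye, flight muscle, gut lining and haemocyte markers were also lower on every adult knockdown array. The medians of whole arrays were lower there too, at 6.37 to 6.48 in adult knockdown and 6.69 to 6.77 in adult wild type. How far this array-wide difference enters the sums was not tested. Among tested genes, 0 of 9 female, 1 of 3 head and eye and 2 of 5 flight muscle markers fell. So did 1 of 4 gut lining markers and 2 of 6 haemocyte markers, of which 2 others rose. In larvae 4 of 11 male markers rose, where 15% of all tested probe sets did. The 3 measured larval fat body genes summed to between 1423 and 1619 in adult knockdown and between 148 and 336 in adult wild type. Of 5 tested epidermis markers 0 rose and 0 fell, with sums of 4568 to 5241 in adult knockdown and 4394 to 4497 in adult wild type. The part of these in the cuticle genes' values was not tested. The pathway lists are read beside the 13.6% higher and 15.4% lower of all tested probe sets. Of 20 chitin synthesis genes 2 rose and 3 fell, led by a rise of Cda9, a gene of the chitin deacetylase family, at 4.10 (adjusted p = 2.3e-06). Of 23 ecdysone genes 1 rose (ETH, a moulting hormone gene, 1.11, adjusted p = 0.00283) and 5 fell, with Hr38, a nuclear receptor gene, at -1.39 (adjusted p = 0.000149). Of 18 turnover genes 3 rose and 4 fell, of 21 sclerotisation genes 1 rose and 5 fell, of 16 other chitin-binding genes 1 rose and 2 fell, and of 9 lipid barrier genes 0 rose and 4 fell.

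An effect of knockdown here means knockdown minus wild type. Any difference of line or age between the groups cannot be told apart from it. The effects at the 2 stages were compared through their difference, adult minus larval. It was higher than 0 for 6 of 84 members and lower for 11, where 7.87% of all tested probe sets were higher and 12.9% lower, so the members' 7.14% and 13.1% were near the background. The widest positive differences were those of genes that fell in larvae: Cpr67Fa2 at 4.63 (SE 0.45, adjusted p = 6.63e-05), Cpr49Ad at 3.60 (adjusted p = 0.00842) and Acp65Aa at 2.73 (adjusted p = 0.00166). Cpr67Fa2 and Cpr49Ad were under the percentile on all 6 adult arrays, so no adult effect could be read for them and their differences restate the larval falls. In adults Acp65Aa was just above the percentile in both groups, at 5.90, 6.04 and 5.81 in knockdown, against 5.79, 5.32 and 5.67 in wild type. Cpr65Au differed by 1.40 (adjusted p = 0.00106), with 11.61, 11.64 and 11.88 in adult knockdown, against 11.70, 11.50 and 11.97 in adult wild type. It overlapped in adults and fell in larvae. Cpr62Bb, above the percentile in all 4 groups, differed by -2.39 (adjusted p = 0.000302). Cpr35B also differed by -2.39 (adjusted p = 0.00546) and was under the percentile on all 6 adult arrays.

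With 12 arrays 0 of 84 members were called the same way at both stages, where 9.32% of all tested probe sets were. Of these 84, 41 were under the percentile on all 6 adult arrays, so no adult effect could be read for them. The shares in this paragraph are not limited to members with adult signal. Opposite calls were made for 3 members (3.57%), where 2.63% of all tested probe sets had them. Lcp65Aa (higher in adults, lower in larvae), Cpr62Bc and Cpr97Eb (lower in adults, higher in larvae) were these 3. Under median centring Cpr62Bc lost both its adult and its larval call (adjusted p = 0.842 and 0.151). So did Cpr97Eb (adjusted p = 0.175 and 0.0773). Lcp65Aa kept its larval call in 2 of 6 fits with 1 larval array left out. With each stage fitted on its own 6 arrays, Cpr64Ad and Cpr100A were higher in knockdown at both stages. These were 2.38% of members, where 8.41% of all tested probe sets were called the same way in those fits. Opposite calls were made for 5 members (5.95%), where 2.23% of all tested probe sets had them: Cpr97Eb, Cpr62Bb, Cpr67B and Cpr65Ec were lower in adult and higher in larval knockdown, and Lcp65Aa was higher in adult and lower in larval knockdown. Among the genes with opposite calls, Cpr62Bc and Cpr65Ec were under the percentile on all 6 adult arrays, and Lcp65Aa on every adult wild type array. The difference for Cpr97Eb was -1.28 (adjusted p = 0.00619) and that for Lcp65Aa 1.23 (adjusted p = 0.000451).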

How the data were processed

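Total RNA was labelled with a 3' in vitro transcription kit and hybridised to Affymetrix Drosophila genome arrays, per the labels' protocols. The deposited table holds log2 signals for each array. The submitters' processing notes name MAS5 and give no version, and detection calls were not used here. Each array had a trimmed mean of 500.0 in linear signal after 2% was trimmed at each end, and array medians lay between 5.95 and 6.77 on the log2 scale. Only 3 arrays per group limit the precision.

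Here 183 of 18952 probe sets were left out as controls. The platform annotation gave 13646 of the rest 1 symbol, 402 several and 4721 none, and all 107 member probe sets matched RefSeq genes of the Release 6 plus ISO1 MT assembly, used for neighbour order only. limma 3.58.1 (R 4.3.3, lmFit and eBayes with a variance trend) was fitted to 12 arrays in 4 groups, with contrasts of knockdown at each stage, their difference, and stage in each genotype, and Benjamini-Hochberg adjustment over 12827 probe sets that reached the 40th percentile on 3 or more arrays. Where the dimmer group's mean was under its 40th percentile, "at least" folds were taken against the percentile. Tables and plots used Python 3.11.15, pandas 2.3.3, numpy 2.4.6 and matplotlib 3.10.9.

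Genes named are Sps2, every member called (up to 12 per direction) at each stage, the members with the widest stage effects and differences, the largest uncalled changes, the member of each family with the smallest p where none was called, the widest ranges, and up to 4 genes per pathway list. Members called only with their own stage's 6 arrays were named after their values were seen. The members and all gene lists were chosen with earlier results of these data known. The alternatives tried were quantile normalization, median centring, other filters, no variance trend, array weights, a replicate block, a pseudocount of 16, only the arrays compared, and leaving out each array in turn. No sequences of these genes were used here.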

Additional observations from a re-analysis of the deposited data

Results flagged for a closer look

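The effect of knockdown (knockdown minus wild type), tested as adult minus larval, differed between the stages for 17 of 84 members, adjusted over all tested probe sets in limma. These shares were near the background: 7.14% of members were higher and 13.1% lower, where 7.87% and 12.9% of all tested probe sets were. The effect itself is listed by gene. It was higher in adults for Cpr67Fa2 at 4.63, Cpr49Ad at 3.60, Acp65Aa at 2.73, Cpr65Au at 1.40, Lcp65Aa at 1.23 and Cpr47Ec at 0.76. It was lower in adults for Ccp84Ag at -3.54, Cpr65Ec at -3.17, Cpr76Ba at -3.17, Cpr35B at -2.39, Cpr62Bb at -2.39, Cpr49Ag at -1.65, Cpr97Eb at -1.28, Twdlalpha at -1.19, Cpr67B at -0.96, Cpr66D at -0.84 and Cpr62Bc at -0.67. Of the 14 named among these, 12 were called without any 1 of the 12 arrays, the exceptions being Cpr76Ba (adjusted p up to 0.088) and Twdlalpha (adjusted p up to 0.0714). Cpr67Fa2, Cpr49Ad, Cpr47Ec, Ccp84Ag, Cpr65Ec, Cpr76Ba, Cpr35B and Cpr62Bc were under the 40th percentile on all 6 adult arrays, so no adult fold can be read for these 8.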

How the results depend on the processing

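Over 1961 combinations of a named gene and a setting, 1756 kept direction and side of the threshold, 136 lost the call, 68 gained one and 1 turned: Cpr49Ae in adult against larval wild type, at -0.14 under median centring. Some members were named only for a call with the arrays compared alone. Their gains in that setting are among the 68 and were fixed by that choice. In adult knockdown, 9 members were higher and 3 lower under median centring, 3 lower under quantile normalization, and 7 higher and 11 lower with array weights. In larval knockdown, 4 were higher under median centring, 3 with array weights, 22 with a pseudocount of 16 (11 lower) and 24 with only the arrays compared (14 lower). For the difference of the effects, 18 were lower with a pseudocount of 16. With each array left out in turn, larval calls ran from 3 to 11 higher and 4 to 6 lower, and adult calls from 3 to 6 higher and 5 to 10 lower. The causes were not tested. Median centring shifted the median of all probe sets by 0.28 in adults, -0.09 in larvae, 0.37 in the difference, -0.71 in the stage contrast of wild type and -0.35 in that of knockdown. It gave 4666 higher and 779 lower calls over all probe sets in adults, beside 1742 and 1975 without it. In larvae it gave 1189 higher and 1690 lower, beside 1918 and 1369 without it. Quantile normalization gave 2062 higher and 1738 lower over all probe sets in adults. For array weights, the pseudocount, the replicate block and arrays left out, no counts over all probe sets are given, here or above. Whether those member counts moved with all probe sets cannot be read from them. Of the 38 members called with 6 larval arrays, 27 were called under all 8 alternatives and 36 under both scalings; Cpr65Aw, Cpr50Cb and Cpr97Eb each lost the call under 4 of the 8. Same-numbered arrays did not deviate together; the replicate block gave 4 higher and 7 lower in adults, 10 and 6 in larvae, and 6 and 10 for the difference. Signals under the 40th percentile limit what can be read in adults.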
